A study of Mus musculus with 31 samples.

Results

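Immediate early genes were followed in 3 mouse fat depots before and during cold exposure. The 10 genes are a list of names with no measured value in its rule, drawn up with earlier results of these data known: Fos, Fosb, Jun, Junb, Egr1, Btg2, Ier2, Nr4a1, Dusp1 and Zfp36. Each had 1 row among the 17334 RefSeq transcript accessions of the count tables, so no choice between rows arose, and all 10 passed the filter on low counts in every fit. The libraries came from male C57BL/6J mice of 8 weeks, all acclimated at thermoneutrality for 8 days: the cold groups then spent 2 or 4 days at 4 °C, and the day 0 group was killed without cold. One depot was brown fat from between the shoulder blades (iBAT); the others were white fat, from the groin (inguinal, iWAT) and from beside the epididymis (eWAT). The 31 libraries gave 3, 4 and 3 replicates at days 0, 2 and 4 in iBAT, 4, 3 and 5 in iWAT, and 3, 3 and 3 in eWAT. The tissue was snap frozen whole, so each value is a mean over all cells of the piece, and the labels do not say whether a library is 1 mouse or whether libraries with the same number in several depots come from 1 mouse. If they were not separate animals, the p-values measure technical spread only.

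Immediate early genes are transcribed within minutes of a stimulus by transcription factors already present in the cell, such as CREB and SRF, and their mRNAs are short-lived. In brown fat, cold acts through noradrenaline, beta-adrenergic receptors and cAMP, and several of these genes are known targets of that pathway in mouse adipocytes. Among the 10, Fos and Fosb encode proteins that pair with Jun and Junb as the AP-1 transcription factor, Egr1 encodes a zinc finger transcription factor, and Nr4a1 encodes an orphan nuclear receptor. Btg2 encodes an antiproliferative protein that binds the CCR4-NOT deadenylase, and Ier2 encodes a small nuclear protein. Dusp1, a phosphatase of MAP kinases, and Zfp36 (tristetraprolin), which recruits deadenylases to AU-rich mRNAs, are feedback inhibitors of the same response.

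Promoter sequence was available for 8 of the 10 genes from a RefSeq promoter table built on GRCm38.p6 (mm10), and the 250 bases before the annotated start were searched for motifs on both strands. The half-site TGACG, the core of the cAMP response element (CRE) that CREB binds, was found in 6 of the 8, Fos, Fosb, Junb, Btg2, Nr4a1 and Dusp1, against 17.8% of all 32851 promoters in the table. The full palindrome TGACGTCA, which contains the half-site on both strands, was found in Btg2 and Dusp1, against 1.55% of promoters. The CArG box, the site of SRF, was found in Zfp36 only of the 8, against 1.47% of promoters. Egr1 and Ier2 had no promoter sequence, and bases more than 250 before the start were not searched. A site missing here is thus not shown to be absent from a gene. The 4 promoters below are shown because they hold 2 or more half-sites and belong to genes with the largest day 2 differences in iBAT and to the phosphatase. Capitals mark each half-site or palindrome, and Nr4a1 has its half-sites on the other strand, so they read CGTCA.
Fos, chr12:85473640-85473889, plus strand: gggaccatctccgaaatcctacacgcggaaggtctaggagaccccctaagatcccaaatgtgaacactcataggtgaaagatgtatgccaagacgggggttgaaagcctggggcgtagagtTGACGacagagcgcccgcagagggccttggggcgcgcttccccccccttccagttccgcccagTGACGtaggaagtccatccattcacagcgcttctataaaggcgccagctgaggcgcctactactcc
Nr4a1, chr15:101266596-101266845, plus strand: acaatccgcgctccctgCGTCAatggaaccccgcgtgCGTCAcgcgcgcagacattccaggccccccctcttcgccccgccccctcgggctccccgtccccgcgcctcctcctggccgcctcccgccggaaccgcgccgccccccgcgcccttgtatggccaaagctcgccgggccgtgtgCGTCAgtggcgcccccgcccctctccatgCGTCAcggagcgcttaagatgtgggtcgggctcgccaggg
Btg2, chr1:134079156-134079405, minus strand: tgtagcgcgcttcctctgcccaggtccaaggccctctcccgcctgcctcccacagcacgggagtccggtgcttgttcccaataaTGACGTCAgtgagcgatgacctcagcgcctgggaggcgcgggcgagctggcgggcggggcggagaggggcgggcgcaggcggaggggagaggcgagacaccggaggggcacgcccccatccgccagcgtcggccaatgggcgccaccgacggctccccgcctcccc
Dusp1, chr17:26508473-26508722, minus strand: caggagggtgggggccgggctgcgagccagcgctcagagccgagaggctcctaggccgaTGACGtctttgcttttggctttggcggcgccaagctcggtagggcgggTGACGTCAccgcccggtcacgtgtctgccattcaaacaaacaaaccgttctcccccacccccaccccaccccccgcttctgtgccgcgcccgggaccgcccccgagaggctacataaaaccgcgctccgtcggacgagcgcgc
The Fos half-sites begin 129 and 66 bases before the start, and those of Nr4a1 begin 233, 213, 69 and 40 bases before it. The palindrome lies 166 bases before the start of Btg2 and 143 bases before that of Dusp1. The table's Nr4a1 start lies inside the span of the counted transcript (chr15:101253902-101274795, plus strand), so its window is that of a start within the gene. The Fosb window (chr7:19310046-19310295, minus strand) also overlaps the span of its counted transcript (chr7:19302696-19310118). Its half-site, 60 bases before the table's start, lies in the overlapping part. A match is a description of letters in the window, not evidence of binding.

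Total counts ran from 1.58 to 3.76 M per iBAT library, 1.5 to 5.53 M per iWAT library and 3.19 to 4.03 M per eWAT library. Levels are given as CPM, read counts divided by the TMM-normalized library size and put on a common scale; TMM corrects for a few abundant genes taking a large share of the counts. Every gene of the 10 had counts in all 31 libraries except Fosb, which was NA in iBAT550 and is given as 0. Ucp1, the uncoupling protein of brown fat, set iBAT apart from eWAT: it averaged 7496, 22130 and 26676 CPM at days 0, 2 and 4 in iBAT and 8.04, 4.43 and 20.8 CPM in eWAT. In iWAT it averaged 212, 6065 and 3259 CPM. The iWAT values of day 2 (3445 to 8540 CPM) overlapped those of iBAT at day 0 (5125 to 9531 CPM). Dio2, the deiodinase induced by cold, averaged 422 ± 120 CPM at day 2 and 40.8 ± 29.0 CPM at day 0 in iBAT (SD, n = 4 and 3; log2 difference 3.44, edgeR adjusted p = 0.0389). The iBAT libraries also held skeletal muscle RNA, the iWAT libraries lymphocyte RNA (11 markers summing to 806 to 3965 CPM, against 0 to 50.5 CPM elsewhere), and the white fat libraries, to very different degrees, RNA of epididymis and testis (11 markers, 178 to 37305 CPM in eWAT, 1.25 to 6043 CPM in iWAT and 0 to 6.28 CPM in iBAT). In iWAT these were highest in iWAT555 (6043 CPM) and iWAT522 (930 CPM). Libraries iBAT539 and iBAT548 had only 159 and 57 features at a count of 1, where every other iBAT library had at least 1014 and at most 1224, so low counts are missing there and results on iBAT are also given without both.

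Summed over the 10 genes, iBAT at day 0 stood above every other group. The sum averaged 2567 ± 1449 CPM at day 0, 638 ± 236 CPM at day 2 and 506 ± 173 CPM at day 4 in iBAT (SD, n = 3, 4 and 3). In iWAT it averaged 648 ± 199, 584 ± 200 and 507 ± 226 CPM at the same days, and in eWAT 685 ± 231, 359 ± 108 and 557 ± 225 CPM. Each iBAT day 0 library, at 2197, 4164 and 1338 CPM, was above all 28 others, of which the highest had 960 CPM. Of the 10 genes, 9 had their highest group mean in iBAT at day 0; the exception was Zfp36, highest in iWAT at day 0, and with plain library totals in place of TMM Btg2 was highest there too. Counted again with each library left out in turn, an alternative chosen after seeing the data, 6 were highest in iBAT at day 0 without iBAT517, 8 without iWAT518 or iWAT522 and 10 without iWAT517. Library iBAT517 was the highest of the 10 iBAT libraries for every one of the 10 genes.

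**Figure D1:**
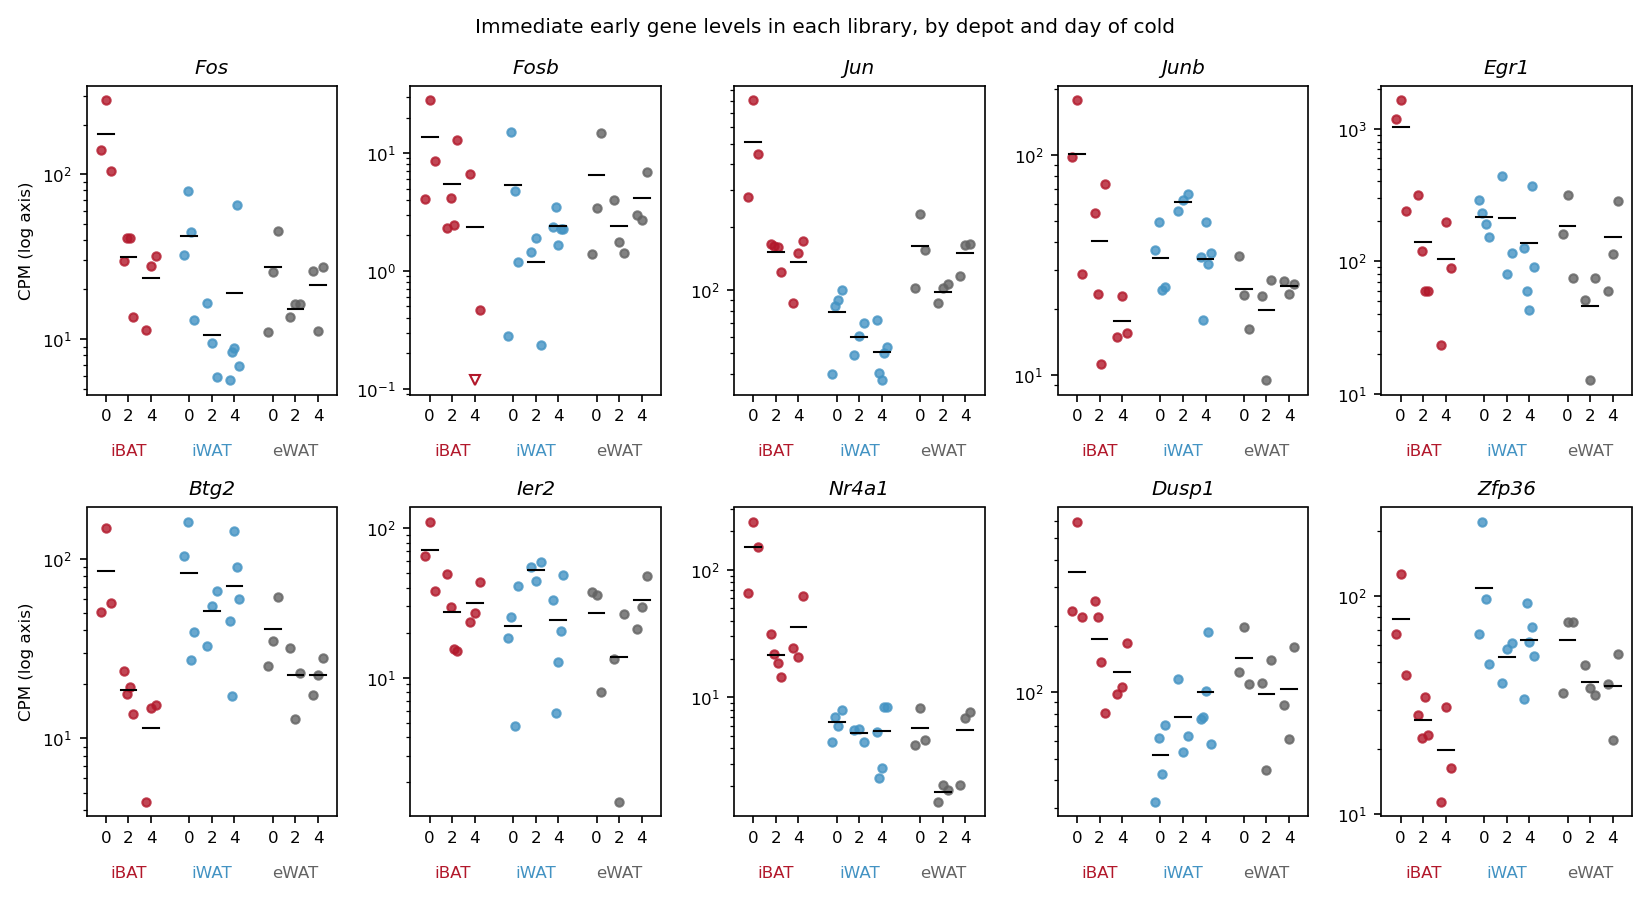
Level of each immediate early gene in CPM (log axis) in every library, by depot and by day of cold (0, 2 and 4). Points are libraries, bars are group means, and the open triangle is the 0 CPM of Fosb in iBAT550; 9 of the 10 genes have their highest mean in iBAT at day 0.

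**Figure D2:**
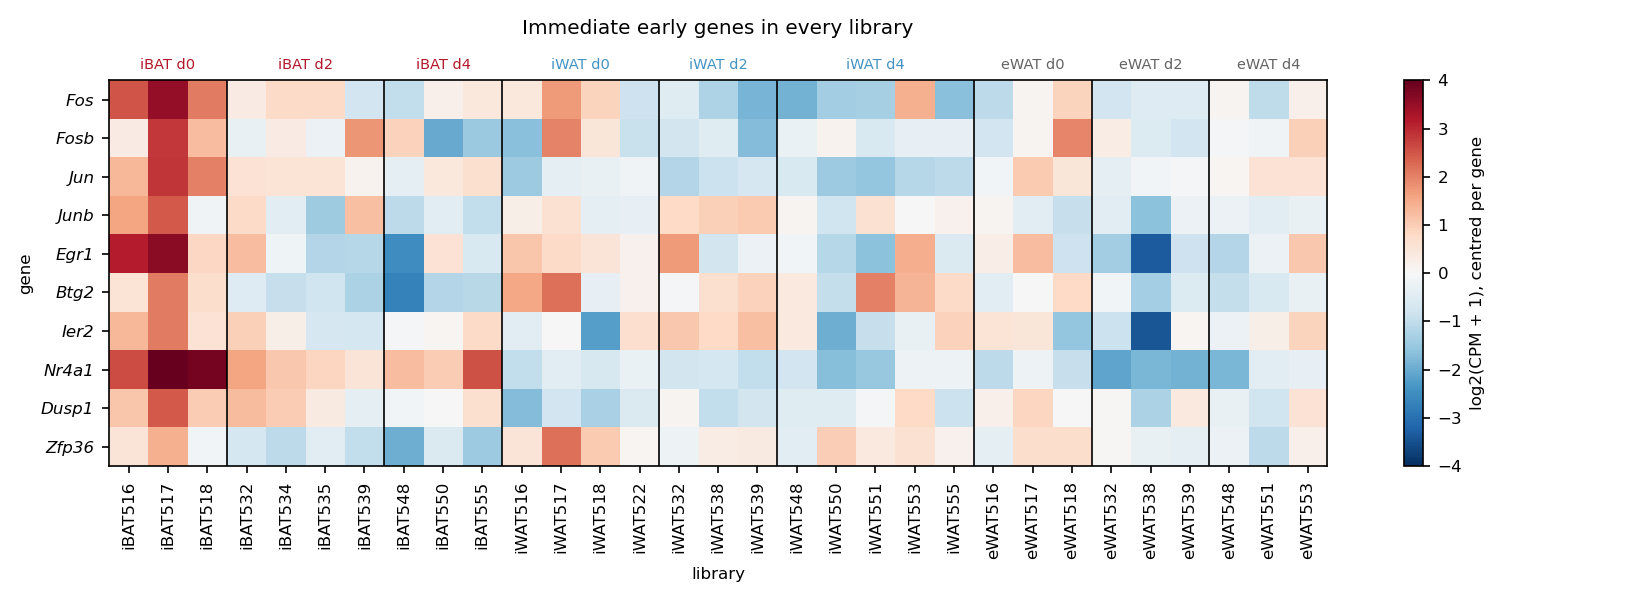
Each gene's log2(CPM + 1) in all 31 libraries, minus its mean over libraries, with depots and days separated by lines (d0, d2 and d4 are days 0, 2 and 4). The 3 iBAT day 0 columns are above the mean for nearly every gene, and iBAT517 is the highest of the iBAT libraries in all 10 rows.

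The comparison of cold with day 0 asks which genes differ after 2 or 4 days at 4 °C. In iBAT all 10 genes were lower in the cold at both times, where 49.5% of all genes were lower at day 2 and 52.4% at day 4, with a median log2 difference of -1.57 at day 2 and -2.10 at day 4, against 0.01 and -0.04 over all 8270 genes tested. The direction of all 10 was the same with RLE size factors and with library size alone, which moved the median of all genes to -0.27 and -0.30. The largest differences of the 10 were those of the transcription factor genes Egr1, Nr4a1 and Fos and the antiproliferative gene Btg2 at day 2, and of Egr1, Fos, Btg2 and Junb at day 4. None of the 10 passed an adjusted p of 0.05 in edgeR's quasi-likelihood test at either day, where the test called 0.157% of all genes at day 2 and 0% at day 4. At an unadjusted p under 0.05, 7 were lower at day 2, against 5.13% of all genes, and 8 at day 4, against 3.29%. DESeq2, run as an alternative, called 5 of the 10 lower at each day (306 genes in all at day 2 and 81 at day 4), and limma voom called none. The groups did not overlap for 5 genes at day 2 and 8 at day 4, against 9.95% and 12.4% of all genes lower without overlap.

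Among the AP-1 genes, Fos in iBAT had 141, 282 and 104 CPM at day 0, 29.9, 41.0, 40.8 and 13.6 CPM at day 2, and 11.4, 27.6 and 31.8 CPM at day 4. All 7 cold libraries were below the lowest day 0 library. The log2 difference was -2.42 ± 0.49 (SE) at day 2 with an adjusted p of 0.0922, and -2.84 ± 0.55 at day 4 with an adjusted p of 0.177. DESeq2 gave Fos an adjusted p of 0.000334 at day 2 and of 0.000184 at day 4.

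Jun, the AP-1 partner of Fos, had 278, 808 and 448 CPM at day 0, 166, 163, 161 and 122 CPM at day 2, and 87.3, 150 and 172 CPM at day 4. Again no cold library reached the day 0 range, and the 4 day 2 libraries lay close together. The log2 difference was -1.67 ± 0.38 at day 2 and -1.83 ± 0.42 at day 4, with adjusted p of 0.131 and 0.266. Jun overlaps the antisense gene Junos, and Zfp36 overlaps Gm44710 on the other strand; since strand use in counting is not given in the sources used here, reads of each pair cannot be told apart.

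Junb and Fosb were less even. Junb had 97.5, 178 and 28.8 CPM at day 0, 54.4, 23.4, 11.2 and 74.1 CPM at day 2, and 14.9, 22.7 and 15.4 CPM at day 4. It overlapped between days 2 and 0 and not between days 4 and 0, where its log2 difference was -2.43 ± 0.77 (adjusted p = 0.52). Fosb, the least abundant of the 10 per kilobase of transcript in iBAT, had 4.08, 28.2 and 8.60 CPM at day 0, 2.30, 4.15, 2.43 and 12.9 CPM at day 2, and 6.65, 0 and 0.467 CPM at day 4. Its groups overlapped at both times. Its high values on days 2 and 4 came from iBAT539 and iBAT548, and its log2 difference at day 4 was -2.20 with these 2 libraries and -5.42 without them.

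Egr1 had 1195, 1648 and 241 CPM at day 0, 315, 120, 59.3 and 59.8 CPM at day 2, and 23.4, 199 and 88.3 CPM at day 4. The day 0 libraries themselves spanned a wide range, and iBAT518 was below the highest day 2 library. The log2 difference was -2.84 ± 0.81 at day 2 and -3.27 ± 0.92 at day 4, the largest of the 10 at each day, with adjusted p of 0.201 and 0.409. Nr4a1 had 65.2, 239 and 151 CPM at day 0, 31.4, 21.8, 18.5 and 14.3 CPM at day 2, and 24.4, 20.8 and 62.1 CPM at day 4. It did not overlap between cold and day 0, although iBAT555 at day 4 came close to iBAT516 at day 0. Its log2 difference was -2.75 ± 0.52 at day 2, with the lowest adjusted p of the 10 (0.0721), and -2.01 ± 0.56 at day 4 (adjusted p = 0.409).

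Btg2 had 50.6, 149 and 56.4 CPM at day 0, 23.8, 17.7, 19.4 and 13.6 CPM at day 2, and 4.43, 14.7 and 15.4 CPM at day 4. The groups were apart at both times. The log2 difference was -2.13 ± 0.50 at day 2 and -2.84 ± 0.57 at day 4, with adjusted p of 0.142 and 0.177. Ier2 had 64.8, 111 and 38.0 CPM at day 0, 49.8, 29.6, 15.5 and 15.0 CPM at day 2, and 23.7, 26.9 and 43.4 CPM at day 4. Its groups overlapped at both times, though with plain library totals they were apart at day 4. Ier2 had the smallest difference of the 10 at day 4, -1.10.

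The feedback inhibitors were lower as well. Dusp1 had 234, 595 and 220 CPM at day 0, 259, 220, 137 and 80.9 CPM at day 2, and 98.4, 106 and 168 CPM at day 4. At day 2 its libraries overlapped those of day 0, and its log2 difference of -0.95 was the smallest of the 10; at day 4 the groups were apart, with a difference of -1.41 ± 0.51 (adjusted p = 0.573). Zfp36 had 66.9, 126 and 43.6 CPM at day 0, 28.4, 22.3, 34.5 and 23.1 CPM at day 2, and 11.4, 31.2 and 16.3 CPM at day 4, with no overlap at either time. Its log2 difference was -1.47 ± 0.45 at day 2 (adjusted p = 0.214) and -1.94 ± 0.50 at day 4 (adjusted p = 0.378). Between days 4 and 2 of iBAT no gene of the 10 had an unadjusted p under 0.05, and the median log2 difference was -0.45.

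Without iBAT517 all 10 genes were still lower in the cold, with a median of -1.05 at day 2 and -1.47 at day 4, and 5 and 7 of them had an unadjusted p under 0.05. For some genes little was left at day 2: Fosb moved from -1.21 to -0.10, Dusp1 from -0.95 to -0.32 and Junb from -1.21 to -0.51. Without iBAT539 and iBAT548 the medians were -1.89 and -2.11, and 9 genes had an unadjusted p under 0.05 at each day. Fos was then called at day 2 (log2 difference -2.19, adjusted p = 0.0436). The share of all genes at the unadjusted limit in these refits is not given here. The 5.13% and 3.29% above belong to the fit of all iBAT libraries and cannot be set beside these counts.

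Skeletal muscle RNA moved with the same contrast. The summed level of 17 muscle markers in iBAT, like all marker sums on plain library totals, was 24428, 20316 and 62965 CPM at day 0, 12385, 7469, 11139 and 10035 CPM at day 2, and 24791, 15466 and 4402 CPM at day 4; Mb was at 0 in all libraries of days 2 and 4. The day 0 libraries held 3 of the 4 highest muscle sums and the 3 highest early gene sums, and iBAT532 was the highest of day 2 in both. Library iBAT517, with the most early gene RNA, had the least muscle RNA of day 0. Library iBAT548, whose muscle sum was above that of 2 of the 3 day 0 libraries, had the lowest early gene sum in iBAT, 306 CPM. Endothelial markers, 7 in all, summed to 804 to 1272 CPM at day 0, 379 to 684 CPM at day 2 and 321 to 833 CPM at day 4. The 6 white adipocyte markers summed to 2324 to 2932 CPM at day 0, 704 to 1716 CPM at day 2 and 350 to 2154 CPM at day 4, and the 6 macrophage markers to 50.5 to 63.6, 27.8 to 49.5 and 23.2 to 44.7 CPM on the same days. Not every white adipocyte marker was lower. With TMM, Adipoq averaged 2855, 1659 and 1825 CPM at days 0, 2 and 4, Lep 17.9, 17.2 and 6.56 CPM, and Retn 4.14, 8.77 and 7.82 CPM. At day 4 the 7 fibroblast and progenitor markers (477 to 799 CPM, against 942 to 1370 CPM at day 0) and the 3 erythroid markers (11.9 to 19.9 CPM, against 24.5 to 30.9 CPM) were also below day 0 without overlap. The sum of the 6 brown adipocyte markers was higher in the cold, at 8649 to 11268 CPM at day 0, 16125 to 36736 CPM at day 2 and 27268 to 34166 CPM at day 4. That sum does not stand for each marker. With TMM, Ucp1 averaged 7496, 22130 and 26676 CPM at days 0, 2 and 4, and Cidea 344, 373 and 364 CPM. Dio2 (40.8, 422 and 212 CPM) and Elovl3 (60.6, 764 and 540 CPM) had higher means in the cold, as Ucp1 did. The part of these cell types, muscle included, in the result was not tested. In whole tissue, fewer cells of a type and less RNA per cell cannot be told apart.

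**Figure D3:**
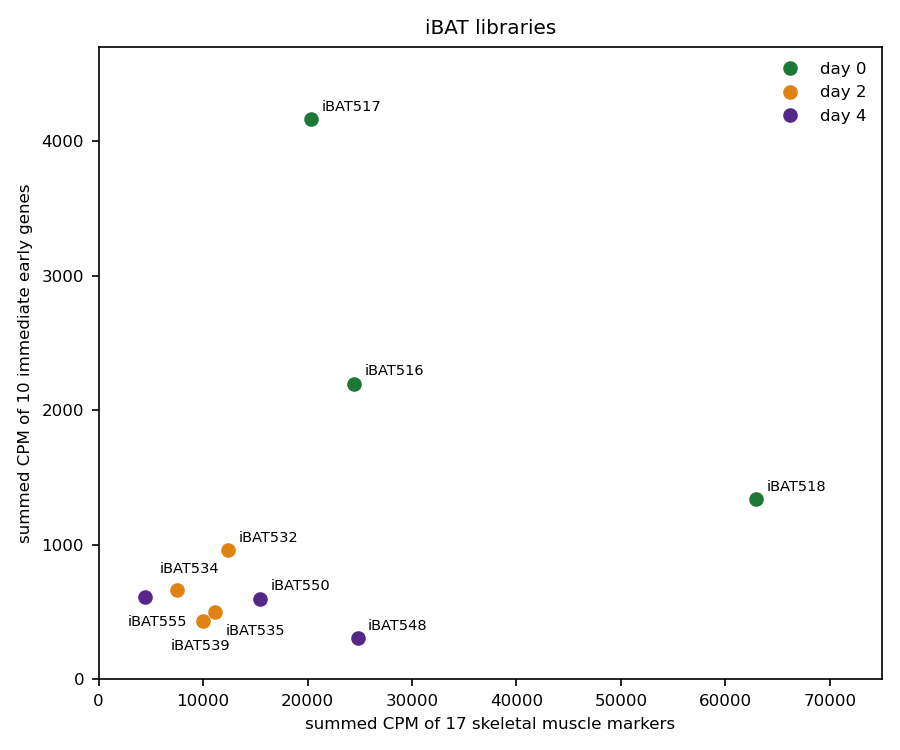
Summed CPM of the 10 immediate early genes (vertical axis) against the summed CPM of 17 skeletal muscle markers (horizontal axis) in the 10 iBAT libraries, coloured by day of cold. The 3 day 0 libraries have the highest early gene sums; iBAT548 at day 4 has 24791 CPM of muscle markers and 306 CPM of early genes, while iBAT517 at day 0 has 20316 and 4164 CPM.

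In the white depots none of the 10 genes was called in edgeR, where 0% of all genes were called at each day. DESeq2 and limma voom called none of the 10 either. In iWAT the direction was mixed: 7 of the 10 were lower at day 2 (median log2 difference -0.37, against -0.08 over all genes, of which 54.3% were lower) and 8 at day 4 (median -0.43, against -0.01, with 50.8% of all genes lower). At an unadjusted p under 0.05, 2 were lower at day 2, Fos and Fosb, against 6.43% of all genes. Fos in iWAT had 32.3, 79.2, 44.5 and 13.0 CPM at day 0, 16.6, 9.49 and 5.87 CPM at day 2, and 5.60, 8.37, 8.87, 65.1 and 6.84 CPM at day 4. The day 4 group was low except for iWAT553. The difference at day 2 was -2.01 ± 0.88 (unadjusted p = 0.0367, adjusted p = 0.461), and Fosb had a like difference of -2.19 ± 1.00 (unadjusted p = 0.0447, adjusted p = 0.468). That of Fosb rests on few reads, 1, 62, 8 and 4 at day 0 and 5, 7 and 1 at day 2. The 62 reads were those of iWAT517.

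Junb and Ier2 were higher at day 2 of iWAT. Junb had 55.6, 62.3 and 66.2 CPM at day 2, against 37.1, 49.4, 24.3 and 25.1 CPM at day 0, and Ier2 had 54.7, 44.7 and 59.4 CPM at day 2, against 18.3, 25.3, 4.75 and 40.8 CPM at day 0. Both groups were apart, which held for 8.15% of all genes in that direction, but with plain library totals they overlapped. The log2 differences were 0.83 ± 0.39 and 1.20 ± 0.66, with unadjusted p of 0.051 and 0.0886. At day 4 Junb was at 34.2, 17.7, 49.3, 31.8 and 35.8 CPM, below all day 2 values. This held for 2.72% of all genes in that direction, and with plain library totals these groups overlapped too. That difference was -0.83 ± 0.37 (unadjusted p = 0.0401, adjusted p = 0.779), where 1.59% of all genes were lower at an unadjusted p under 0.05. Dusp1 in iWAT had 76.0, 76.9, 101, 188 and 58.3 CPM at day 4, against 31.8, 62.1, 42.7 and 71.2 CPM at day 0, a log2 difference of 0.94 ± 0.42 (unadjusted p = 0.0413, adjusted p = 0.582); it was the 1 gene of the 10 higher at that unadjusted limit, against 4.46% of all genes. Cell type markers moved in iWAT as well: the 7 fibroblast and progenitor markers summed to 590 to 735 CPM at day 2 and 622 to 1082 CPM at day 4, against 1599 to 2019 CPM at day 0, and the 6 brown adipocyte markers to 4766 to 9412 CPM at day 2, against 152 to 1770 CPM at day 0. The 8 keratinocyte and mammary epithelial markers had a median sum of 259 CPM at day 2 and 7296 CPM at day 0, with overlap. Their part in these differences was not tested. Nr4a1 in iWAT ran from 2.32 to 8.32 CPM over all 12 libraries, with no gap between days.

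In eWAT all 10 genes were lower at day 2 (median log2 difference -0.83, against 0.01 over all genes, of which 49.5% were lower) and 8 at day 4 (median -0.32, against -0.01, with 50.5% of all genes lower). At an unadjusted p under 0.05, 2 were lower at day 2, Nr4a1 and Egr1, against 0.558% of all genes. Nr4a1 in eWAT had 4.20, 8.31 and 4.65 CPM at day 0, 1.51, 2.06 and 1.88 CPM at day 2, and 2.06, 6.82 and 7.64 CPM at day 4. It was lowest at day 2, apart from day 0 and, by a margin lost in rounding, from day 4. The day 2 values rest on only 6, 7 and 8 reads, and that of eWAT548 at day 4 on 9. Groups were apart in the same directions for 2.67% and 4.33% of all genes. The Nr4a1 difference was -1.62 ± 0.60 at day 2 against day 0 (unadjusted p = 0.0226, adjusted p = 1). At day 4 against day 2 it was 1.55 ± 0.60 (unadjusted p = 0.0277, adjusted p = 0.823), where 2.29% of all genes were higher at an unadjusted p under 0.05. Egr1 in eWAT had 162, 316 and 74.6 CPM at day 0, 50.9, 12.6 and 74.6 CPM at day 2, and 59.3, 114 and 287 CPM at day 4, with a difference of -1.96 ± 0.81 at day 2 (unadjusted p = 0.0371, adjusted p = 1). Library eWAT538 held the lowest Egr1, Ier2, Btg2, Junb and Dusp1 of the 9 eWAT libraries.

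**Figure D4:**
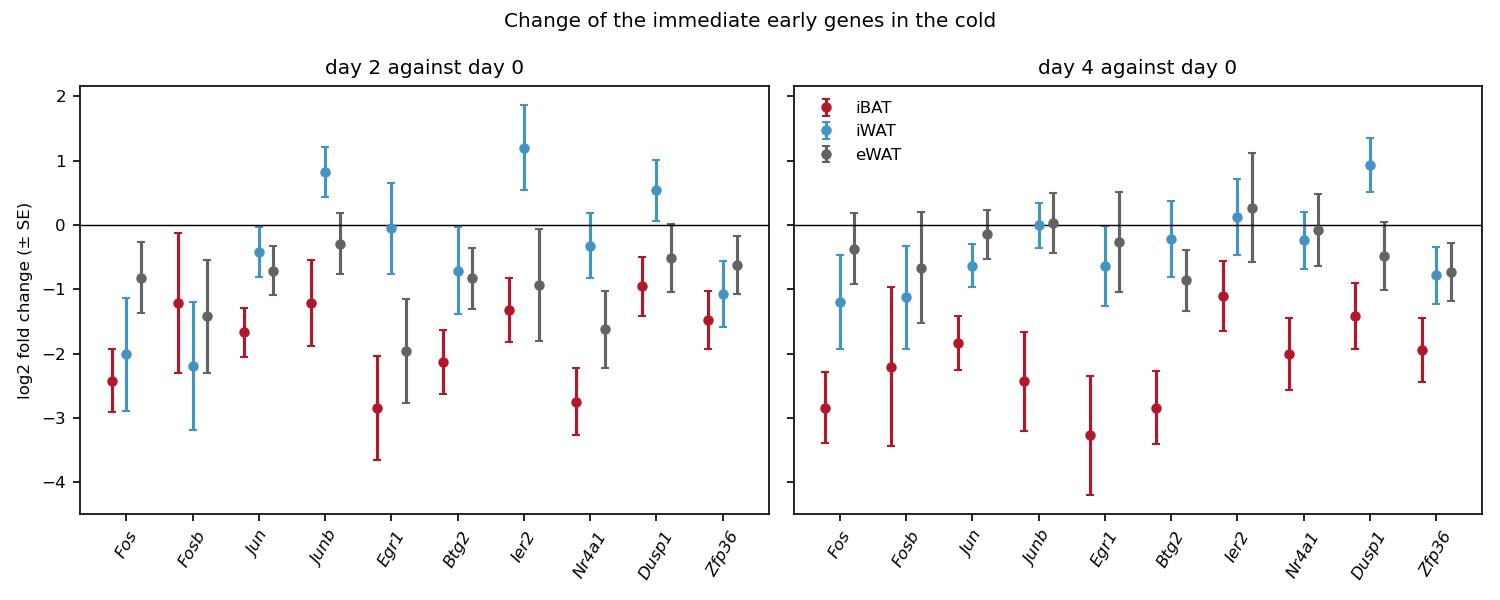
Log2 fold change of each immediate early gene against day 0, at day 2 (left) and day 4 (right), in iBAT, iWAT and eWAT; points are edgeR estimates and bars are ± SE. All iBAT points lie below 0, from -0.95 to -2.84 at day 2 and from -1.10 to -3.27 at day 4, while iWAT points lie on both sides.

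Whether the day change differed between depots was tested as an interaction in 1 fit of all 31 libraries, over 11041 genes. None of the 60 tests on the 10 genes passed an adjusted p of 0.05, where 0% of all genes did. At an unadjusted p under 0.05, the day 2 change was more negative in iBAT than in iWAT for 6 genes, Jun, Junb, Egr1, Ier2, Nr4a1 and Dusp1, against 4.85% of all genes. No gene of the 10 met that limit for the day 2 change in iBAT against eWAT, where 2.70% of all genes did in this direction. The lowest adjusted p among the 6 was 0.427, for Nr4a1, whose change differed by -2.53 ± 0.71. At day 4 the change was more negative in iBAT than in iWAT for 6 genes, against 4.18% of all genes, and than in eWAT for 6, against 3.06%. Jun, Junb, Egr1, Btg2 and Nr4a1 were in both of these day 4 sets, beside Dusp1 against iWAT and Fos against eWAT. The comparisons share their iBAT libraries and are not independent of each other.

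The comparison of depots asks where the genes are most abundant on a given day. At day 0, before cold, Nr4a1, Jun, Dusp1, Fos and Junb were higher in iBAT than in iWAT at an adjusted p under 0.05, 5 of the 10, where 8.12% of all genes were called higher and 17.9% were called in either direction. The median log2 difference of the 10 was 1.86, against -0.18 over all genes. At day 0 skeletal muscle markers summed to 20316 to 62965 CPM in iBAT, 43.9 to 3857 CPM in iWAT and 39.2 to 1419 CPM in eWAT, and brown adipocyte markers to 8649 to 11268 CPM in iBAT, 152 to 1770 CPM in iWAT and 19.3 to 164 CPM in eWAT, and the part of either in the depot differences was not tested. Nr4a1 stood 4.56 ± 0.54 higher on the log2 scale (adjusted p = 2.37e-06), with 65.2 to 239 CPM in iBAT and 4.50 to 7.97 CPM in iWAT. Jun stood 2.70 ± 0.37 higher (adjusted p = 1.40e-05), and Dusp1 2.75 ± 0.50 higher (adjusted p = 0.000325), at 234, 595 and 220 CPM in iBAT and 31.8, 62.1, 42.7 and 71.2 CPM in iWAT. These 3 kept an adjusted p under 0.05 whichever day 0 library was left out. Fos (2.05 ± 0.70, adjusted p = 0.0413) and Junb (1.57 ± 0.52, adjusted p = 0.0358) did not: without iBAT517 their log2 differences were 1.53 and 0.89, with adjusted p of 0.192 and 0.297. Both calls were also lost without iBAT516, iWAT516, iWAT518 or iWAT522, and with RLE size factors, library size alone or no filter. Btg2, at 50.6 to 149 CPM in iBAT and 27.3 to 161 CPM in iWAT, and Zfp36, at 43.6 to 126 CPM in iBAT and 49.0 to 220 CPM in iWAT, overlapped.

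Against eWAT at day 0, 4 of the 10 were higher in iBAT, where 5.07% of all genes were called higher and 10.3% in either direction. Nr4a1 was higher by 4.72 ± 0.61 on the log2 scale (adjusted p = 8.98e-06), Fos by 2.69 ± 0.79 (adjusted p = 0.028), Junb by 2.04 ± 0.58 (adjusted p = 0.0224) and Jun by 1.65 ± 0.40 (adjusted p = 0.00798). Without iBAT517 the call of Nr4a1 was the 1 left of the 4, and 2 were left without iBAT516, eWAT516 or eWAT517. Between iWAT and eWAT at day 0 none of the 10 was called, where 7.82% of all genes were. Of the 10, 2 genes, Jun and Dusp1, had an unadjusted p under 0.05, lower in iWAT, against 10.4% of all genes. DESeq2 called both, and its share of all genes is not given here.

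After 2 days of cold, in iBAT against iWAT, 2 of the 10 were called higher, where 5.87% of all genes were and 15.6% were called in either direction: Nr4a1 by 2.03 ± 0.54 (adjusted p = 0.00964) and Jun by 1.35 ± 0.38 (adjusted p = 0.0148). Each of these calls was lost when certain single iWAT day 2 libraries were left out, Nr4a1 without iWAT539 and Jun without iWAT532 or iWAT538. Against eWAT 1 of the 10 was higher in iBAT, Nr4a1, by 3.54 ± 0.59 (adjusted p = 0.000168), where 7.29% of all genes were higher and 17.8% were called in either direction. In iWAT against eWAT none was called, where 10.2% of all genes were. Here 4 genes had an unadjusted p under 0.05, all higher in iWAT, against 10.7% of all genes: Junb, Egr1, Ier2 and Nr4a1. DESeq2 called Junb, and limma voom called Junb and Ier2, and their shares of all genes are not given here.

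After 4 days Nr4a1 and Jun were again higher in iBAT than in iWAT, by 2.72 ± 0.48 (adjusted p = 0.000226) and 1.43 ± 0.34 (adjusted p = 0.00482), where 5.83% of all genes were called higher and 17.6% in either direction. Btg2 and Zfp36, which act on mRNA decay, were lower, where 11.7% of all genes were called lower. Btg2 had 4.43, 14.7 and 15.4 CPM in iBAT and 45.1, 17.2, 142, 90.0 and 59.6 CPM in iWAT, a log2 difference of -2.63 ± 0.65 (adjusted p = 0.00591). Zfp36 had 11.4, 31.2 and 16.3 CPM in iBAT and 33.9, 92.8, 61.5, 72.6 and 53.2 CPM in iWAT, a difference of -1.69 ± 0.49 (adjusted p = 0.0171). The groups were apart for both, which held for 12.8% of all genes in that direction. Both calls were lost without iBAT548, with adjusted p of 0.055 and 0.119. That of Zfp36 was also lost without iBAT555 (adjusted p = 0.0887). The lymphocyte markers lie on the iWAT side of these 2 differences, at 806 to 3965 CPM in iWAT and 0 to 11.2 CPM in iBAT at day 4, and their part was not tested. Against eWAT 1 gene was higher in iBAT, Nr4a1 by 2.69 ± 0.56 (adjusted p = 0.0017), where 6.67% of all genes were higher and 18.1% were called in either direction. In iWAT against eWAT, Jun was lower by 1.56 on the log2 scale (SE 0.34, adjusted p = 0.0034), with 37.1 to 72.2 CPM in iWAT and 117 to 167 CPM in eWAT, where 5.44% of all genes were called lower and 9.94% in either direction.

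**Figure D5:**
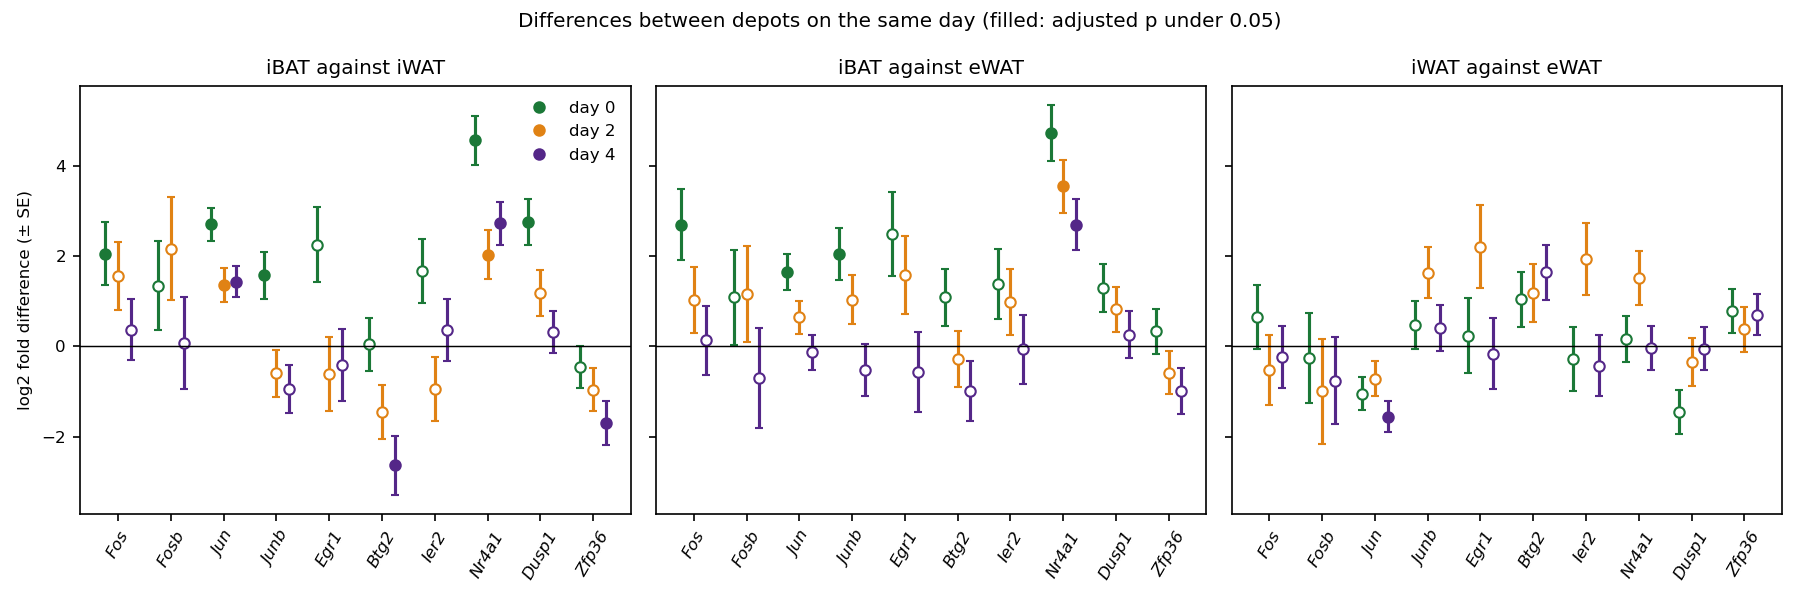
Log2 difference of each immediate early gene between depots on the same day (iBAT against iWAT, iBAT against eWAT, iWAT against eWAT) with ± SE from the fit of all 31 libraries; filled points have an adjusted p under 0.05. Nr4a1 is filled at all 3 days in both iBAT panels, from 2.03 to 4.72, and Jun at all 3 days against iWAT.

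Nr4a1 was thus the gene called higher in iBAT than in each white depot on every day, 6 of 6 comparisons, and Jun in 4 of 6. Both held under TMM and under RLE size factors. The Jun difference at day 2 against iWAT was not called with library size alone, nor with the label number as a replicate block (adjusted p = 0.122). In a fit of the compared groups alone Nr4a1 was not called against eWAT at day 4 (adjusted p = 0.0591) nor Jun against eWAT at day 0 (adjusted p = 0.0607). Scaling by library size alone moved the median of all genes, to -0.53 against -0.18 under TMM in iBAT against iWAT at day 0, and to -0.79 against -0.37 at day 4. Per kilobase of transcript, the highest group means in iBAT at day 0 were those of Egr1 (339 ± 237), Dusp1 (176 ± 107) and Jun (160 ± 84.9 CPM per kilobase, SD, n = 3), whose spreads overlapped, and the lowest was Fosb (3.60 ± 3.39).

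The other genes of the response were counted for comparison. None of 30 tested other early response genes was called against day 0 in any depot; in iBAT 20 were lower at day 2 (median log2 difference -0.31) and 24 at day 4 (median -0.40), with 4 and 3 at an unadjusted p under 0.05 and lower. Over all genes 49.5% and 52.4% were lower, and 5.13% and 3.29% at that limit. Among 7 tested other AP-1 subunit genes in iBAT, 2 were lower at day 2 (median 0.12) and 4 at day 4 (median -0.03), and none was called. None was called in iBAT of the 2 tested other EGR and NR4A genes (medians -0.80 and -0.93) either. The same held for the MAP kinase phosphatase list (6 tested, medians -0.04 and -0.16), the Zfp36 family and its partners (5 tested, medians -0.21 and -1.02) and the genes that signal to early genes (17 tested, medians 0.20 and 0.02), of which none was called in iBAT.

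Between depots some relatives were called. In iBAT against iWAT at day 0, where 8.12% of all genes were called higher and 9.77% lower, the calls were 1 higher and 2 lower of 9 tested AP-1 subunit genes, 2 higher and 1 lower of 7 MAP kinase phosphatases, 1 higher and 1 lower of 19 signalling genes, and 4 higher and 3 lower of 30 other early response genes. None was called of 5 genes of the Zfp36 list and 2 EGR and NR4A genes. Fosl2, an AP-1 subunit gene related to Fos, was higher in iBAT than in iWAT at day 0 (54.6 ± 21.8 and 21.2 ± 7.86 CPM, log2 difference 1.37, adjusted p = 0.0189). Batf, an AP-1 family gene of lymphocytes, was lower in iBAT than in iWAT at day 0 (0.571 ± 0.257 and 25.3 ± 5.69 CPM, difference -5.41, adjusted p = 9.88e-05). Dusp10 and Dusp4, phosphatases of MAP kinases, were higher in iBAT than in iWAT at day 0 (differences 2.27 and 2.18), and Dusp2 was lower (-4.49). Prkaca, which encodes the catalytic subunit of the cAMP-dependent kinase, was higher in iBAT than in iWAT at day 0 (347 ± 35.8 and 97.3 ± 25.6 CPM, difference 1.84, adjusted p = 0.00338).

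Of 7821 genes outside all lists, the 5 whose deviations within groups were most like the mean deviation of the 10 genes over the 31 libraries were Mrs2 (Pearson r = 0.81), Cers2 (0.65), Sh3bgrl (0.62), Acacb (0.62) and Cxcl9 (0.60). The points share library, depth and scaling, and r is given as a description. Mrs2, which encodes a mitochondrial magnesium channel, was at low levels, from 3.26 to 13.9 CPM in iBAT at day 0, and the highest iBAT values of it were at day 2, so the likeness concerns deviations within groups and not the order of the group means.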

How the data were processed

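Bulk RNA-seq libraries were grouped by the depot and day in the labels. The authors deposited 1 table of raw counts per depot, whole numbers per RefSeq accession; they hold NA and never a 0, and NA was taken as 0. Adapter trimming with cutadapt, alignment with BWA and the build mm10 are named in the submitters' processing notes; the counter and strand use are not given in the sources used here. Symbols came from the RefSeq annotation of GRCm38.p6 for 17030 accessions and from GENCODE for 105; 199 had none. Tests on counts used edgeR 4.0.16 (R 4.3.3) with TMM scaling, genes kept by filterByExpr at a minimum count of 10 and total of 15, robust quasi-likelihood F-tests, two-sided, Benjamini-Hochberg adjustment over all genes of a comparison, threshold 0.05. Day contrasts were fitted within a depot (8270, 9574 and 10043 genes in iBAT, iWAT and eWAT), depot contrasts and interactions over all 31 libraries (11041 genes). Each SE was obtained from the log2 change and its F, as the size of the change over root F. The within-group coefficient of biological variation was 0.55, 0.538 and 0.583 in iBAT, iWAT and eWAT. Alternatives were scaling by library size alone or by RLE size factors, limma voom (limma 3.58.1), DESeq2 1.42.0, all genes unfiltered, a score of the main axis of within-group variation learned in the other 2 depots, the label number as a block, a fit of the compared groups alone, and leaving out libraries. Counting error alone understates the spread, since duplicates carry no molecular identifiers. The 10 genes and the comparison lists were chosen with earlier results of these data known. All 10 genes are described; from the other lists, up to 3 called genes per comparison with the smallest adjusted p were eligible to be named, and the most alike genes were the 5 with the highest r. Genes of these lists with no row were not analysed here.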

Additional observations from a re-analysis of the deposited data

Results flagged for a closer look

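In iWAT at day 4, Fos in iWAT553 was 65.1 CPM, against 5.60 to 8.87 CPM in the other 4 libraries, and its gap to the nearest of them was 0.945 of the group's range (critical value 0.71 for 5 libraries). Egr1 in iWAT553 was also apart, at 372 CPM against 42.7 to 125 CPM, with a gap of 0.751 of the range. In iBAT at day 2, Jun in iBAT539 was 122 CPM, against 161 to 166 CPM in the other 3 libraries, with a gap of 0.891 of the range (critical value 0.829 for 4 libraries); this library is 1 of the 2 with few low counts. Dixon's 95% limit sets about 1 group in 20 apart by chance. It was applied to each gene in each group of 4 or 5 libraries, 30 pairs of gene and group in all.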

How the results depend on the processing

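Fewer than 3 genes of the 10 were called against day 0 by any setting except DESeq2. Shares of all genes given above belong to the main edgeR fits. The share under each other setting is not given here, so a count that moves cannot be set against all genes. In iBAT at day 2 none was called with TMM and edgeR, 2 without the filter, 5 by DESeq2, 1 with the library score, 1 in the fit of the compared groups alone and 1 without iBAT539 and iBAT548. In iBAT at day 4 none was called, 5 by DESeq2 and 2 with the score. For iBAT against iWAT at day 0, 5 were called, 3 with RLE size factors, with library size alone or without the filter, and 3 to 5 with 1 library left out. For iBAT against eWAT at day 0, 4 were called, 2 with the compared groups alone, and 1 to 4 with 1 library left out. For iWAT against eWAT at day 0 none was called, 1 with library size alone, 2 by DESeq2, 1 with the score, 1 with the label number as a replicate block, and 0 to 2 with 1 library left out (2 without iWAT522). For iBAT against iWAT at day 2, 2 were called, 1 with the replicate block, 4 with the compared groups alone, and 1 to 2 with 1 library left out. For iWAT against eWAT at day 2 none was called, 1 by DESeq2, 2 by voom, 1 with the replicate block, and 0 to 1 with 1 library left out. For iBAT against iWAT at day 4, 4 were called, 2 without iBAT539 and iBAT548, and 2 to 5 with 1 library left out. For iBAT against eWAT at day 4, 1 was called, 2 with library size alone and 0 with the compared groups alone. For iWAT against eWAT at day 4, 1 was called, 2 by DESeq2, and 1 to 2 with 1 library left out (2 without iWAT550). Directions reversed at small values: at day 4 against day 0, Fosb in iWAT was 0.06 by voom, Junb in iWAT 0.00 with RLE, Fosb in eWAT 0.09 with the score, and Junb in eWAT -0.17 with library size alone and -0.06 with the score. With 1 library left out, log2 changes in iWAT ran from -1.18 to 0.38 for Egr1 at day 2 and, at day 4, from -1.53 to 0.36 for Fosb, -0.18 to 0.21 for Junb, -0.64 to 0.32 for Btg2 and -0.33 to 0.60 for Ier2. In eWAT they ran from -2.04 to 0.04 for Fosb and -0.59 to 0.05 for Junb at day 2. At day 4 of eWAT they ran from -0.72 to 0.25 for Fos, -1.23 to 0.81 for Fosb, -0.37 to 0.17 for Jun, -0.16 to 0.38 for Junb, -1.10 to 0.35 for Egr1, -0.14 to 0.58 for Ier2 and -0.39 to 0.32 for Nr4a1. The cause of these changes was not tested. Label numbers recur across depots, and the main fits did not take the number as pairing because the labels do not say what it marks. Deviations of same-numbered libraries correlated between -0.55 and 0.42. Differently numbered libraries were not compared, so these values cannot decide whether same-numbered libraries come from 1 mouse. With the number as a replicate block, in iBAT against iWAT, Fos (adjusted p = 0.0645) and Junb (0.0986) at day 0, Jun at day 2 (0.122) and Btg2 at day 4 (0.0898) were not called, and Ier2 at day 0 was (0.0381). Calls gained elsewhere were Egr1 in iBAT against eWAT at day 0 (0.0495), and, in iWAT against eWAT, Dusp1 at day 0 (0.0330) and Junb at day 2 (0.0399). No paired analysis was possible for day contrasts because the days share no numbers. The 3 to 5 libraries per group limit what an adjusted p can show.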

Other observations

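The libraries iBAT517, iWAT517 and eWAT517, which carry 1 number in the labels, each had the highest summed level of the 10 genes among the day 0 libraries of their depot, at 4164 CPM in iBAT, 936 CPM in iWAT and 951 CPM in eWAT. The other day 0 libraries had 2197 and 1338 CPM in iBAT, 622, 533 and 500 CPM in iWAT, and at most 565 CPM in eWAT. At day 4 iWAT553 (900 CPM, against 325 to 460 CPM) and eWAT553 (814 CPM, against 399 and 458 CPM) were the highest of their depots, and iBAT has no library of that number. At day 2 iBAT532 (960 CPM) and iWAT532 (810 CPM) were the highest of theirs, while eWAT532, at 384 CPM, was below the 453 CPM of eWAT539. This was seen after the values were known and was not tested, and the labels do not say what the number marks.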
